A study of Mus musculus with 21 samples.

Results

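The 4 h to 18 h change under lipopolysaccharide (LPS) was compared between wild-type (WT) macrophages and macrophages labelled Nur77 knockout (labelled KO). All 14 libraries taken at 4 h and 18 h entered, of 21 libraries in the series: 4 WT and 3 labelled KO at each time. For each gene the quantity was a difference of differences on the log2 scale, the 18 h against 4 h change in labelled KO minus the same change in WT, called the contrast below. A positive contrast means that the gene stood higher at 18 h, relative to 4 h, in labelled KO than in WT. Over 11798 genes tested, 1162 differed between the genotypes (9.85%), 722 with a positive contrast (6.12%) and 440 with a negative one (3.73%). Upper-quartile factors gave 629 and 558, and median-of-ratios factors 833 and 378. Among NF-kB-driven cytokines and mediators 23 of 37 were called, all 23 positive, led by Ptgs2, Nos2 and Il6. Without labelled-KO number 2 at 4 h the counts over all genes were 455 positive and 226 negative. The negative count was also 271 without labelled-KO number 4 at 18 h, 268 without number 4 at 4 h, 293 without WT number 1 at 18 h and 287 without WT number 2 at 18 h, and no gene was called in the opposite direction in any of 26 alternatives.

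Cells were grown from the marrow of male mice, 6 to 12 weeks old, with the strain label C57Bl6/J, over 7 days with supernatant of L929 fibroblasts, a source of CSF-1. They then received 100 ng/ml LPS. The WT groups carry the genotype tag wt and the labelled-KO groups the tag cre, and the sources used here do not give the allele or Cre driver behind it. Libraries carry numbers, 1 to 4 in WT and 2 to 4 in labelled KO, but no label ties a number to a mouse of its own. The p-values therefore set the group differences against the spread of these libraries, which may be technical and not a spread between mice. Values per library are listed in the order of these numbers.

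As background, LPS is sensed by Toll-like receptor 4, which activates NF-kB and MAP kinases within minutes and, through a second adaptor, interferon beta. Interferon then acts back on the cells through JAK-STAT signalling and raises interferon-stimulated genes. The early wave is later damped by NF-kB inhibitors, phosphatases, SOCS proteins and proteins that destroy cytokine mRNAs. Nur77, the product of Nr4a1, is a nuclear receptor that is itself an immediate early gene and binds the NBRE element.

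Nr4a1 (NM_010444, chromosome 15, 101253902 to 101274795 on mm10), the gene named in the labels, was read first and was expressed at a low level. At 4 h it stood at 5.97, 1.8, 1.45 and 1.08 CPM, counts scaled to library size, in WT and at 0.444, 0.73 and 0.996 CPM in labelled KO. At 18 h the WT libraries held 0.867, 1.12, 0.812 and 0.904 CPM and the labelled-KO libraries 2.49, 1.76 and 2.89 CPM. Labelled KO was thus below every WT library at 4 h and above every WT library at 18 h. The contrast was 3.12 ± 0.73 (log2, SE; edgeR adjusted p = 0.014), from a log2 change of -1.47 in WT and 1.66 in labelled KO. Without WT number 1 at 4 h the WT change was -0.59 and not called (edgeR adjusted p = 0.09), while the contrast was 2.25 (edgeR adjusted p = 0.0042). The labelled-KO change was 1.48 without number 4 at 18 h and 1.43 without number 2 at 4 h, neither of them called, and the contrast ranged from 2.25 to 3.51 over the alternatives. The sources used here do not say where the knockout lies in the gene, so these counts do not check the labels, and the libraries are named by them throughout. Without both libraries of labelled-KO number 4 the adjusted p of Nr4a1 was 0.059 by edgeR. Nr4a3, a paralogue, fell in both genotypes but less in labelled KO: from 11.2 to 0.101 CPM in WT and from 14.7 to 0.641 CPM in labelled KO (group means; contrast 2.46 ± 0.54, edgeR adjusted p = 0.0098). For Nr4a2 the contrast of 1.05 did not pass (edgeR adjusted p = 0.077).

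Depth ran from 12301504 to 29650081 gene counts a library. Time separated the libraries along a first principal component with 74.6% of the variance. Of the marker lists, macrophage markers summed to between 20754 and 34476 CPM in the 14 libraries. In bulk RNA, fewer cells of a type and less RNA per cell cannot be told apart. Markers of stromal cells and fibroblasts summed to 57.5 to 169 CPM in WT and 116 to 936 CPM in labelled KO at 4 h, and to 45.9 to 123 CPM in WT and 96.5 to 1309.5 CPM in labelled KO at 18 h. None of these markers was at 0 in all 14 libraries. Labelled-KO number 4 was the highest library at both times. In the contrast 0 of 26 stromal markers passed edgeR's adjusted test (2 at an unadjusted p under 0.05; 0 by DESeq2 or limma-voom), with a median of 0.48. Called positive were 2 of them with the stromal covariate or without labelled-KO number 2 at 18 h, and 1 without number 4 at 4 h or with the replicate number as a block. With their mean level as a covariate, 687 genes had a positive and 410 a negative contrast. Without both libraries of labelled-KO number 4 the counts were 398 and 155. WT number 1 at 4 h also stood apart from the other WT libraries at that time over many genes, among them Nr4a1, Saa3 and Tarm1. Pairs of WT libraries at 4 h had a chi-square per degree of freedom of 43.65 to 68.97 with it and 6.99 to 13.15 without it. Its mean over the chemokines was 6.46 log2 CPM against 7.05 to 7.17, and over interferon-stimulated genes 10.08 against 9.71 to 9.77. For NF-kB-driven cytokines and mediators it was 7.72 against 7.62 to 7.71. Without this library 862 genes had a positive and 435 a negative contrast.

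Each genotype changed widely with time, and far more genes changed with time than differed in that change. In WT 8638 genes differed between 18 h and 4 h (73.2%), 4538 higher (38.5%) and 4100 lower (34.8%). In labelled KO 7932 differed (67.2%), 4062 higher (34.4%) and 3870 lower (32.8%). Between the genotypes 463 genes differed at 4 h (3.92%), 257 higher in labelled KO (2.18%) and 206 lower (1.75%), against 3663 at 18 h (31%), 1943 higher (16.5%) and 1720 lower (14.6%). The 4 h count was 160 without labelled-KO number 4, 254 without number 2 and 298 without WT number 2, all at 4 h, and the 18 h count was 2423 without labelled-KO number 4 at 18 h. Of the 1162 genes with a called contrast, 952 differed between the genotypes at 18 h and not at 4 h, 68 at 4 h and not at 18 h, 59 at both times and 83 at neither. These comparisons share libraries with the contrast and are no separate evidence for it. The median contrast over all genes tested was 0, the median size among called genes was 0.75, and 338 genes reached at least 2-fold (224 positive and 114 negative).

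**Figure D1:**
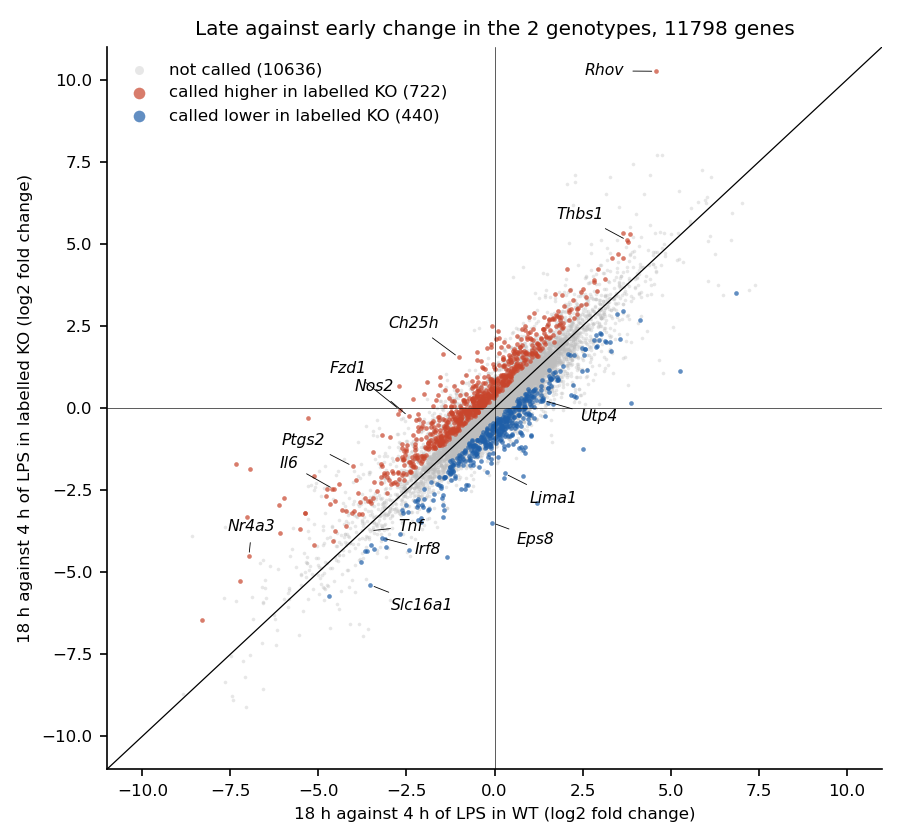
Each point is 1 of 11798 genes, with its 18 h against 4 h log2 fold change in WT on the horizontal axis and in labelled KO on the vertical axis, and the diagonal marks equal change. Red points (722) lie above it and blue points (440) below it where the contrast was called; most lie close to the diagonal, and Tnf lies on it.

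Genes were sorted by what each genotype did. Among called genes, 243 fell in both genotypes with a positive contrast (medians of the log2 change -1.85 in WT and -1.1 in labelled KO), which is a shallower fall in labelled KO. Another 153 fell in both with a negative contrast. Of genes that rose in both, 197 had a positive and 69 a negative contrast. In 52 genes a fall in WT met a rise in labelled KO, and in 33 a rise in WT met a fall in labelled KO. A further 142 fell in WT without a called change in labelled KO, 84 rose in WT without one, 88 rose in labelled KO without a called change in WT, and 101 fell there without one. The sign of the contrast follows from the sorting in these last 6 classes.

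Nos2 (NM_010927, chromosome 11, 78920787 to 78960226 on mm10), the inducible nitric oxide synthase, stayed near its early level in labelled KO and fell in WT. It stood at 674, 554, 689.5 and 675 CPM in WT at 4 h and 87.6, 103, 143 and 144 CPM at 18 h. The labelled-KO libraries held 714, 649.7 and 798 CPM at 4 h and 603, 462 and 746 CPM at 18 h. The genotypes overlapped at 4 h and were far apart at 18 h: WT kept 18.4% of its 4 h mean and labelled KO 83.8% (contrast 2.19 ± 0.25, edgeR adjusted p = 0.00013). Fzd1, a Wnt receptor, followed the same course, with 51.3, 37.5, 50.8 and 35.9 CPM in WT at 4 h and 6.63, 6.14, 8.05 and 6.8 at 18 h. In labelled KO Fzd1 held 37.2, 45.3 and 36.6 CPM at 4 h and 37.6, 31.5 and 44.4 at 18 h. All 3 labelled-KO libraries at 18 h thus lay over 3 times above every WT library, with no difference between genotypes called at 4 h (contrast 2.61 ± 0.22, edgeR adjusted p = 1.4e-05). Tmtc2, an endoplasmic reticulum mannosyltransferase gene, was also of this class, with a contrast of 2.57.

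Ptgs2 was shut down in both genotypes, but less completely in labelled KO. The gene (NM_011198, chromosome 1, 150100031 to 150108234 on mm10) encodes cyclooxygenase 2, which starts prostaglandin synthesis. It stood at 1214, 1469, 1448 and 1266 CPM in WT at 4 h and at 80.8, 80.7, 96.3 and 74.2 CPM at 18 h. In labelled KO the values were 1149.8, 1777 and 1364 CPM and 416, 468 and 371 CPM. The 4 h values overlapped, and at 18 h the lowest labelled-KO library was above the highest WT library; 6.15% of the 4 h mean was left in WT and 29.2% in labelled KO (contrast 2.25 ± 0.19, edgeR adjusted p = 1.4e-05).

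Other genes went opposite ways. Ch25h, which makes the oxysterol 25-hydroxycholesterol, stood at 34.6, 14.9, 16 and 11.7 CPM in WT at 4 h and 10.3, 8.47, 11.4 and 8.47 CPM at 18 h. Labelled-KO values were 12.4, 20 and 21.2 CPM at 4 h and 61.9, 39.3 and 55.9 CPM at 18 h. It fell in WT and rose in labelled KO, and the genotypes overlapped at 4 h only (contrast 2.56 ± 0.42, edgeR adjusted p = 0.0018). The carbonic anhydrase gene Car2 (2.49) and the lipase gene Lipg (1.97) were the next in this class, though the WT fall of Lipg was not called without WT number 1 at 4 h (log2 -0.23) or number 1 (-0.47) or 2 (-0.38) at 18 h. Inhba, a subunit of activin A, rose in labelled KO from 9.48 to 42.9 CPM, while its WT change of 0.14 was not called (contrast 2.01). The heat shock genes Hspa1a (2.24) and Hspa1b (2.03) did likewise, but they are near-identical copies whose reads the counting could split, so each value is uncertain.

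Among genes that rose in both genotypes, Clic5, a chloride channel family member linked to the cytoskeleton, went from 7.73 to 33.1 CPM in WT and from 9.26 to 176 CPM in labelled KO (group means; contrast 2.16). Tarm1, a receptor of myeloid cells, had a contrast of 1.8. Rhov, a small GTPase, had no count in any labelled-KO library at 4 h and 8.65, 8.28 and 9.43 CPM at 18 h, which is at least 121-fold higher against a floor of 3 counts over the group. In WT it went from 0.165 to 4.14 CPM, and its fitted contrast passed (edgeR adjusted p = 0.008) but depends on how a group with no count is treated. Without both libraries of labelled-KO number 4 it did not pass (edgeR adjusted p = 0.058). Thbs1, thrombospondin 1, a matrix protein, rose from 358 to 4862 CPM in WT and from 329 to 11379 CPM in labelled KO (contrast 1.35).

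**Figure D2:**
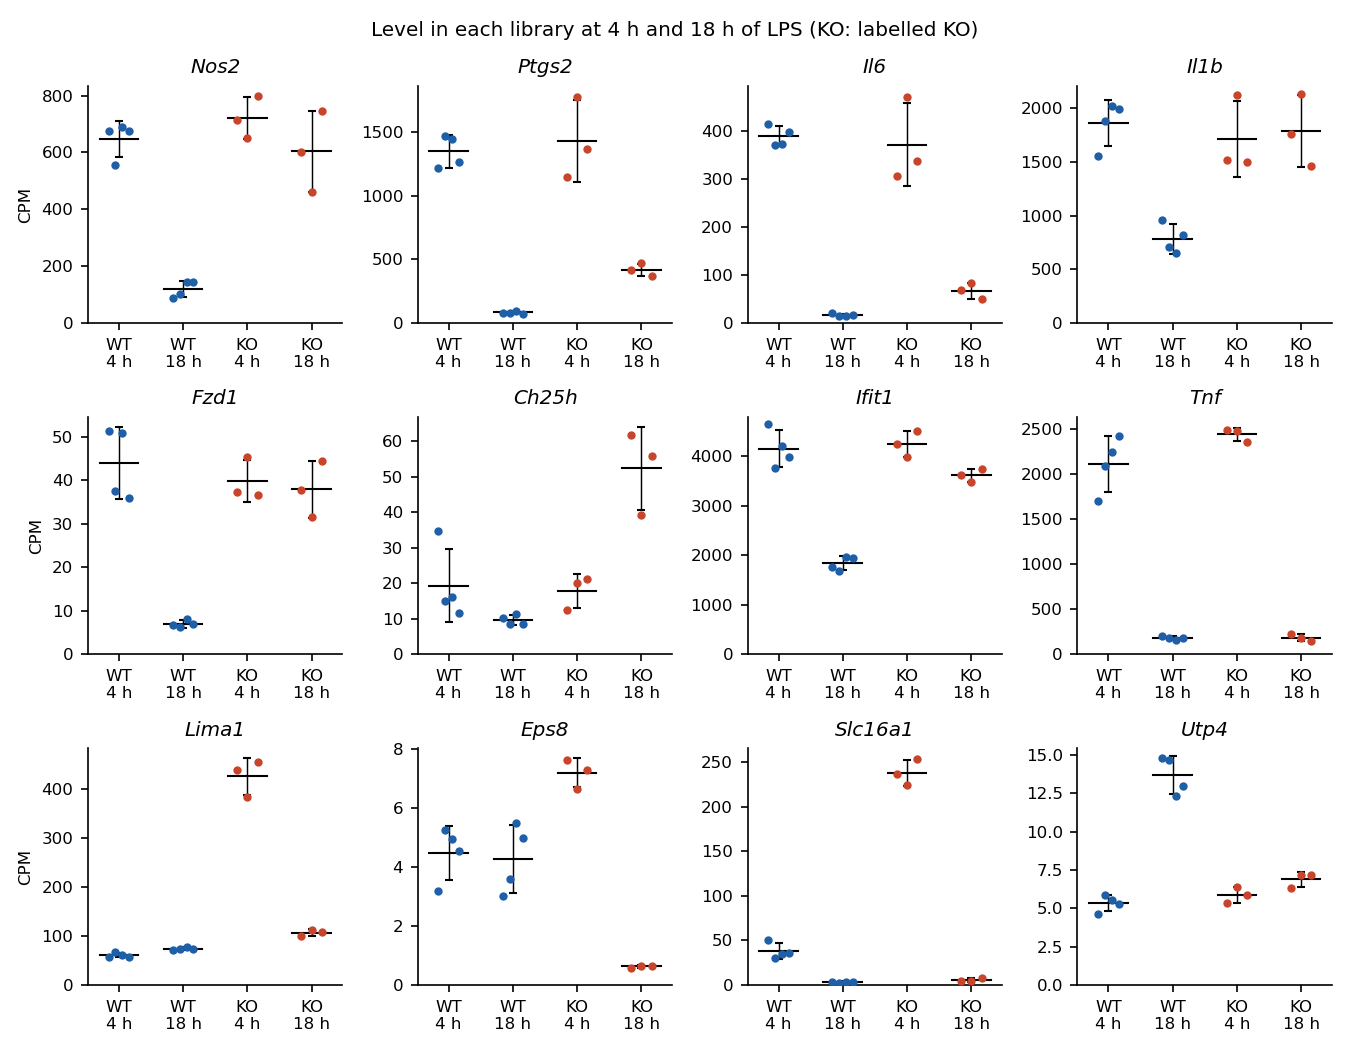
CPM in each library for 12 genes, by genotype and time, with points for libraries, a line for the group mean and bars for 1 SD (4 WT, 3 labelled KO). Nos2 and Fzd1 keep their 4 h level in labelled KO at 18 h, Tnf falls alike in both genotypes, and Lima1, Eps8 and Slc16a1 start higher or end lower in labelled KO.

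On the negative side, several genes started high in labelled KO at 4 h and then came down. Lima1 (NM_023063, chromosome 15, 99778468 to 99875477 on mm10), an actin-bundling protein, stood at 57.4, 67.1, 62.3 and 57.6 CPM in WT at 4 h and at 72.5, 72.8, 78.3 and 73.3 CPM at 18 h. The labelled-KO libraries were at 439.8, 385 and 456 CPM at 4 h and 100.4, 113 and 109 CPM at 18 h. The groups were apart at both times, with the gap much wider at 4 h (contrast -2.27 ± 0.12, edgeR adjusted p = 2.1e-08). Lima1 lies near Nr4a1, the gene named in the labels, on chromosome 15. Whether its place there has a part in this difference was not tested. Slc16a1, a lactate and pyruvate transporter, held 51, 30.3, 35.2 and 36 CPM in WT and 237, 224 and 254 CPM in labelled KO at 4 h. By 18 h it held 3.57, 2.43, 3.86 and 3.66 CPM in WT and 3.96, 5.06 and 7.78 CPM in labelled KO, so an early excess of 2.64 (log2) had shrunk to 0.78 (contrast -1.86 ± 0.30). Tnfrsf10b, a death receptor for TRAIL, was 14.6 CPM in labelled KO at 4 h against 0.895 in WT, and 3.31 against 1.07 CPM at 18 h (contrast -2.41).

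Eps8, which caps and bundles actin filaments, stood above every WT library in all 3 labelled-KO libraries at 4 h and at less than 1 CPM in all 3 at 18 h. In WT it stood at 3.19, 5.24, 4.95 and 4.53 CPM at 4 h and 3.01, 3.58, 5.48 and 5 CPM at 18 h. In labelled KO it went from 7.63, 6.66 and 7.28 CPM to 0.586, 0.659 and 0.648 CPM. The groups did not overlap at either time and changed order; the WT change was not called and the contrast was -3.42 ± 0.35 (edgeR adjusted p = 8.1e-05). Ppp3cc, a calcineurin subunit, fell in both genotypes, to 6.28 CPM in WT and 3.19 CPM in labelled KO (contrast -1.58), as did the RNA gene Snhg15 (-1.88). The potassium channel gene Kcnk13 (-1.57) and the elastase gene Cela1 (-1.53) rose in both, by less in labelled KO, where the Cela1 rise was not called without number 2 or 4 at 18 h or number 3 or 4 at 4 h (log2 0.51 to 0.72). Scamp5, a secretory vesicle protein, and Trp53rka, a kinase gene, rose in WT and fell in labelled KO (both -1.60). Arhgap19 (-1.78), a GTPase-activating protein, and Ints7 (-1.36), an Integrator subunit, rose in WT with no called change in labelled KO.

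The NF-kB-driven list had the largest share of called members among 39 pathway lists. Of 37 NF-kB-driven cytokines and mediators, 23 had a positive contrast (62.2%, against 6.12% of all genes) and 0 a negative one, with a median of 0.79. Leaving out 1 library at a time gave 17 to 23. The median change from 4 h to 18 h was -2.44 in WT and -1.61 in labelled KO. The mean of the list per library was 7.72, 7.62, 7.66 and 7.71 log2 CPM in WT at 4 h and 5.68, 5.51, 5.63 and 5.72 at 18 h. In labelled KO it was 7.72, 7.87 and 7.95 at 4 h and 6.57, 6.63 and 6.69 at 18 h. At 4 h the lowest labelled-KO library equalled the highest WT library, and the other labelled-KO libraries lay above it. By 18 h every labelled-KO library was above every WT library. Of the 37, 3 were already higher in labelled KO at 4 h and 0 lower, where 2.18% of all genes were higher and 1.75% lower. At 18 h 28 of the 37 were higher in labelled KO and 0 lower, where 16.5% of all genes were higher and 14.6% lower. Markers of other cells were also higher in labelled KO at 18 h, 22 of 26 stromal and 8 of 10 neutrophil markers, and their part in the result was not tested beyond the stromal covariate, with which 24 of the 37 had a positive contrast.

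Il6 (NM_031168, chromosome 5, 30013114 to 30019975 on mm10), a cytokine of the acute phase response, stood at 416, 371, 374 and 398 CPM in WT at 4 h and 20.7, 15, 14.8 and 15.7 CPM at 18 h. In labelled KO it stood at 307, 471 and 338 CPM at 4 h and 68, 83.5 and 49.3 CPM at 18 h. Every labelled-KO library at 18 h was over every WT library, while at 4 h the groups overlapped (contrast 2.08 ± 0.24, edgeR adjusted p = 0.00015). Il1b, interleukin 1 beta, held 1556, 1879, 2022 and 1998 CPM in WT at 4 h and 961, 706, 649 and 823 CPM at 18 h. In labelled KO it held 1523, 2124 and 1499 CPM and 1763, 2135 and 1468 CPM, a change of 0.06 that was not called (contrast 1.31 ± 0.23, edgeR adjusted p = 0.0024). Il10, an anti-inflammatory cytokine, reached 24.9 CPM in WT and 44.2 CPM in labelled KO at 18 h (contrast 1.12, edgeR adjusted p = 0.038), but this call ended in 11 of the 14 fits that left out 1 library (log2 over all alternatives 0.90 to 1.67). Mmp13, a collagenase, had a contrast of 1.28, Hdc, which makes histamine, of 1.09, and Acod1, which makes itaconate, of 0.62. With all 21 libraries the Acod1 call ended (contrast 0.63, edgeR adjusted p = 0.5).

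Not all members of the list differed. Tnf, the tumour necrosis factor, stood at 1699, 2090.2, 2249 and 2427 CPM in WT at 4 h and 206, 182, 160.4 and 175 CPM at 18 h. Its labelled-KO values were 2491, 2485 and 2358 CPM at 4 h and 226, 178 and 144 CPM at 18 h. The genotypes overlapped at both times, and 8.55% and 7.48% of the 4 h mean were left (contrast -0.19 ± 0.19, edgeR adjusted p = 0.58; -0.37 to -0.05 under the alternatives). Il12b, the subunit p40 of interleukins 12 and 23, fell from 311 to 16.1 CPM in WT and from 326 to 21.4 CPM in labelled KO (contrast 0.34 ± 0.36, edgeR adjusted p = 0.59). For the acute phase gene Saa3 the contrast of 1.05 ± 0.58 did not pass, and its 4 h WT values ran from 674 CPM to 3326 CPM in number 1. Whether these members differ from Il6 or Ptgs2 in their contrast was not tested.

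**Figure D3:**
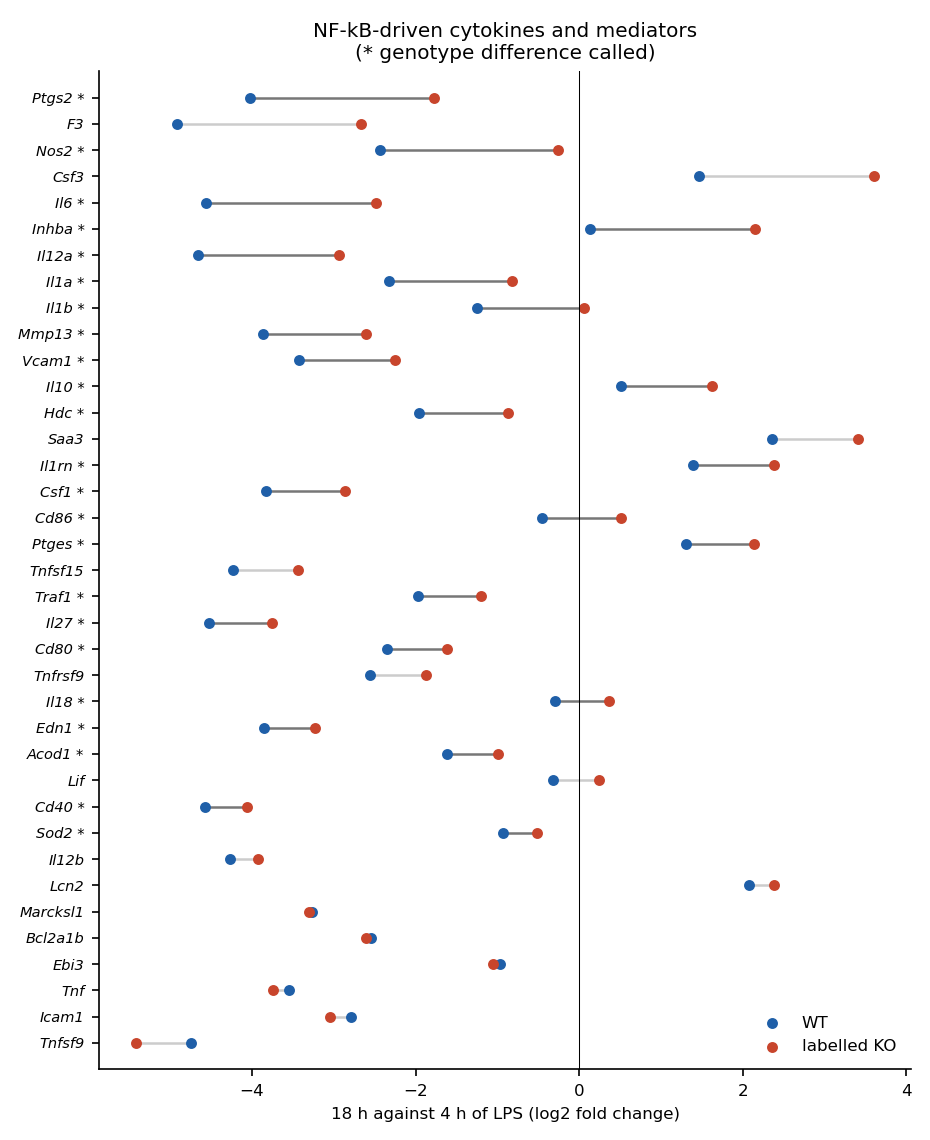
The log2 change from 4 h to 18 h for the 37 NF-kB-driven cytokines and mediators tested, blue for WT and red for labelled KO, with the genes in order of the contrast. The red point lies to the right of the blue point for all 23 called genes (starred), while Tnf and Il12b have both points close together.

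Regulators of the same response also had positive contrasts, beside 6.12% positive and 3.73% negative calls over all genes tested. Of 27 immediate early factors 11 were called, all positive (40.7%; 0 negative; median 0.65), and 7 were called without both libraries of labelled-KO number 4. The 11 include Nr4a1, the gene named in the labels, at 0.723 to 2.57 CPM in the group means. They also include Nr4a3, at 0.101 CPM in WT and 0.641 CPM in labelled KO at 18 h. Klf4, a Krüppel-like factor, had a contrast of 1.74, which was not called without labelled-KO number 4 at 18 h (range over the alternatives 1.28 to 1.93). Dusp1, a phosphatase that switches off p38 and JNK, was below WT at 4 h and above it at 18 h. It held 189, 219, 187 and 169 CPM in WT at 4 h and 213, 214, 237 and 240.4 CPM at 18 h, against 98.4, 108 and 146 CPM and 354, 325 and 366 CPM in labelled KO. The groups did not overlap at either time, and their order changed between the times (contrast 1.32 ± 0.17, edgeR adjusted p = 0.00026). Zfp36, the mRNA-destabilising protein tristetraprolin, fell from 591 to 414 CPM in WT and rose from 521 to 659 CPM in labelled KO (contrast 0.85 ± 0.09).

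Of 29 NF-kB inhibitors and feedback genes 8 were positive (27.6%, against 6.12% of all genes) and 0 negative, with a median of 0.33. This count was 5 without labelled-KO number 2 at 18 h, number 4 at 4 h or WT number 4 at 18 h, and 4 without labelled-KO number 2 at 4 h. It was 5 without both libraries of labelled-KO number 4. Socs3, an inhibitor of cytokine receptor signalling, fell to 258 CPM in WT and 446 CPM in labelled KO (contrast 0.76; with all 21 libraries 0.77, edgeR adjusted p = 0.077). Of 28 regulators of cytokine mRNA decay 7 were positive (25%) and 0 negative (median 0.25), with 4 called without labelled-KO number 2 at 4 h and 3 without both libraries of number 4. Besides Zfp36 they included Tut7, a terminal uridylyltransferase, which fell in WT and rose in labelled KO (contrast 0.77). Of 23 chemokines 7 were positive (30.4%) and 0 negative (median 0.63), with 11 called without WT number 1 at 4 h. Ccl3, which attracts monocytes, kept 20.8% of its 4 h mean in WT and 46.7% in labelled KO (contrast 1.17). For Cxcl2, which attracts neutrophils, the shares were 11.3% and 24.2% (contrast 1.09), and for Cxcl10, an interferon-induced chemokine, 31.5% and 62.8% (contrast 0.99).

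Most called interferon-stimulated genes were positive. Of 56 tested, 24 were positive (42.9%, against 6.12% of all genes) and 1, Irf8, negative, with a median of 0.42. The median change was -0.89 in WT and -0.23 in labelled KO, and 42 of the 56 were higher in labelled KO at 18 h and 1 lower, against 16.5% and 14.6% of all genes tested. At 4 h the list's mean per library was 10.08, 9.71, 9.76 and 9.77 log2 CPM in WT and 9.87, 9.85 and 9.97 in labelled KO. The genotypes thus overlapped at 4 h only through WT number 1. At 18 h the means were 9.10 to 9.22 in WT against 9.60 to 9.70 in labelled KO. With all 21 libraries in 1 fit only 4 of the list were called positive, and leaving out 1 library gave 17 to 27.

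Gbp5, a guanylate-binding protein of the inflammasome pathway, stood at 6401, 5667, 6092 and 5453 CPM in WT at 4 h and 639, 638, 749 and 681 CPM at 18 h. Labelled KO gave 6412, 6423 and 6573 CPM and 1674, 1625 and 1574 CPM. It fell in both genotypes, and labelled KO kept 25.1% of its 4 h mean against 11.5% in WT (contrast 1.13 ± 0.11, edgeR adjusted p = 5.1e-05). Ifit1, which binds foreign RNA caps, kept 44.2% in WT and 85.1% in labelled KO (contrast 0.94 ± 0.12). Gbp3 had a contrast of 0.90; the guanylate-binding genes resemble each other, so reads may be split among them. With all 21 libraries the calls of Ifit1 (contrast 0.95, edgeR adjusted p = 0.074) and Cxcl10 (contrast 1.00, edgeR adjusted p = 0.063) ended, while that of Gbp5 held. Irf8, a factor of the macrophage lineage, was 1032 against 666 CPM at 4 h and 66.6 against 72.2 CPM at 18 h, labelled KO first (contrast -0.75 ± 0.11). For Ifnb1, interferon beta itself, the contrast of 0.41 ± 0.51 did not pass. Of 26 interferon ligands, receptors and JAK-STAT genes 10 were positive (38.5%) and 1 negative (median 0.33), and 6 positive with all 21 libraries. Stat4 was the positive gene of largest contrast (1.8) and Ifngr1, a chain of the interferon gamma receptor, the negative one (-0.88).

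Promoters of 5 of these genes are shown, chosen after their values and motif matches were seen: 4 genes with a positive contrast and Tnf, which did not differ. Each runs from 250 bases before to 50 bases after the annotated start, on the gene's strand, from RefSeq on GRCm38.p6. Capitals mark matches on either strand to a kB motif (GGANTTTCC), an interferon element (GAAANNGAA), AP-1 (TGANTCA), CRE (TGACGTCA) or NBRE (AAAGGTCA).
Il6 (chr5:30012864-30013163, plus strand): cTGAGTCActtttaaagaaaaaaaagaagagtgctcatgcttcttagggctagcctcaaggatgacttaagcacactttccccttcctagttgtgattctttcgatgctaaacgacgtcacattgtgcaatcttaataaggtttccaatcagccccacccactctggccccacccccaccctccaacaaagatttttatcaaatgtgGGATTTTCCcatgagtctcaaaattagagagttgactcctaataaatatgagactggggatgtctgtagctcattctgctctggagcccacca
Cxcl2 (chr5:90903649-90903948, plus strand): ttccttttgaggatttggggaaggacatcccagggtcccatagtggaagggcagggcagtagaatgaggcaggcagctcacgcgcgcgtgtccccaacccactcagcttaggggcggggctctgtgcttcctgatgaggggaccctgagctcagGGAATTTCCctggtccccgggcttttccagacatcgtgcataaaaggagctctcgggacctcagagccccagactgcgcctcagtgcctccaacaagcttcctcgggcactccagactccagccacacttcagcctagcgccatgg
Gbp5 (chr3:142496684-142496983, plus strand): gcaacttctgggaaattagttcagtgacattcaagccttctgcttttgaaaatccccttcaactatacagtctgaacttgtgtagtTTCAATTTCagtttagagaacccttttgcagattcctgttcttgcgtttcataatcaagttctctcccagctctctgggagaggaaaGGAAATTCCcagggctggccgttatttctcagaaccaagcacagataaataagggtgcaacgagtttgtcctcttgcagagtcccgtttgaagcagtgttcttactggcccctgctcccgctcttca
Ifit1 (chr19:34640639-34640938, plus strand): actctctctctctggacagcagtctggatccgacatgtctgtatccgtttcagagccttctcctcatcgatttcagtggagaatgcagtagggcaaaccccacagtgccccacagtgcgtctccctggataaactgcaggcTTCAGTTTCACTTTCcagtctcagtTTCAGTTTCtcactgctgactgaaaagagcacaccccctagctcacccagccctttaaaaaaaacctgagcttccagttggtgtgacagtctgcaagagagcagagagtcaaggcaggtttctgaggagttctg
Tnf (chr17:35201958-35202257, minus strand): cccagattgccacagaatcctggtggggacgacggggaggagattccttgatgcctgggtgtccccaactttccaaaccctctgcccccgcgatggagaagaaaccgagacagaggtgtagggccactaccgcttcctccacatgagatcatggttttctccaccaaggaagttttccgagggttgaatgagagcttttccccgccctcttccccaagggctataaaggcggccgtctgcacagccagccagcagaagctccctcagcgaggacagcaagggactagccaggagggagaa
Il6 held the kB letters with the first base at -43 from the start and Gbp5 at -77, where the Gbp5 window also held an interferon element at -164. Cxcl2 held them at -96. The Ifit1 window held 3 interferon elements, at -109, -103 and -84, the first 2 of which overlap. The Tnf window held none of these letters, which says nothing about the factors.

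Promoters could be matched for 9435 of 11798 genes tested. The interferon element stood in 7.6% of them, in 12.7% of the 574 promoters of genes with a positive contrast and in 7.7% of the 366 with a negative one. Among called interferon-stimulated genes 16 of 20 promoters held it (80%), and 10 of 23 of those not called (43.5%). The CHR letters stood in 8 of the 20 (40%) and 5 of the 23 (21.7%). The kB letters stood in 1.3% of all promoters, 3.3% of the positive and 1.6% of the negative set. AP-1 stood in 5%, 7.7% and 6.3%, and NBRE, the element bound by Nur77, in 0.9%, 1% and 1.6%. The CRE stood in 3.3%, 2.4% and 3.3%. The hypoxia element ACGTG, which is also part of the E-box family, stood in 26.2%, 20.9% and 31.7%, and the cell cycle element TTTGAA (CHR) in 12.1%, 11.7% and 12.8%. A match is a description of letters and no binding site.

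Receptors, adaptors and inflammasome genes held called members of both signs, beside 6.12% positive and 3.73% negative calls over all genes tested. Of 34 TLR4 signalling genes 5 were positive (14.7%) and 2 negative (median 0.15), and 3 positive without labelled-KO number 2 at either time. Leaving out 1 library at a time gave 1 to 3 negative ones. Cd14, the LPS co-receptor, kept 32.6% of its 4 h mean in WT and 69.3% in labelled KO (contrast 1.09). Tbk1, a kinase of the interferon branch (0.55), and Nfkb1, the NF-kB subunit p105/p50 (0.49), were positive as well. Traf3, an adaptor that restrains NF-kB, rose from 9.34 to 33.6 CPM in WT and from 13.6 to 30.1 CPM in labelled KO (contrast -0.71). Of 40 inflammasome, pyroptosis and cell death genes 12 were positive (30%) and 2 negative (median 0.21). Aim2, a sensor of cytosolic DNA, was positive (1.02) and Pycard, the adaptor ASC, negative (-0.78). Of 36 pattern and phagocytic receptors 6 were positive and 1 negative (median 0.43), 10 positive without WT number 1 at 4 h or by DESeq2. They included Fcgr3, an Fc receptor that was 352 against 674 CPM at 4 h, labelled KO first, and 613 against 490.3 at 18 h (1.26). Tlr3 (1.04), a sensor of double-stranded RNA, was positive and the inhibitory receptor gene Cd300a (-1.13) negative.

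Surface ligands for T cells and anti-inflammatory pathways showed mixed signs. Of 20 costimulatory and checkpoint ligands 5 were positive (25%) and 1 negative (median 0.34). Cd86, a costimulatory ligand, went from 241 to 176 CPM in WT and from 297 to 424 CPM in labelled KO (contrast 0.96). Cd274, which encodes the checkpoint ligand PD-L1, fell from 2693 to 1765 CPM in WT and rose from 3018 to 3711 CPM in labelled KO (contrast 0.91). The checkpoint gene Havcr2, which encodes TIM-3, had 1.51, and Vsir, which encodes VISTA, was the negative one (-0.93). Of 25 IL-10 and TGF-beta signalling genes 3 were positive (12%) and 0 negative (median 0.07), against 6.12% and 3.73% of all genes tested. Among the 3 were the repressor gene Nfil3 (0.96) and Bcl6 (0.80). Of 28 genes of alternative activation and efferocytosis 1, the scavenger receptor gene Msr1 (0.84), was positive and 3 negative (median 0.12; 1 negative without both libraries of labelled-KO number 4; 1 to 3 positive without 1 library). Gas6, a bridge to apoptotic cells, was negative (-0.67), and so was the lipoprotein receptor gene Scarb1 (-0.77; without both libraries of labelled-KO number 4 -0.72, edgeR adjusted p = 0.058). Arg1, arginase 1, a gene of alternative activation, had a contrast of -0.79 ± 1.14, which did not pass. Cd5l, a scavenger receptor family protein of macrophages, fell in parallel in both genotypes from levels far apart, 285 to 54.9 CPM in WT and 6.99 to 1.33 CPM in labelled KO (contrast -0.03 ± 0.26, edgeR adjusted p = 0.96).

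The called enzymes of nitric oxide and prostaglandin synthesis were positive, where 6.12% of all genes tested were positive and 3.73% negative. Of 15 nitric oxide, arginine and itaconate genes 3 were positive (20%) and 1 negative (median 0.27). Slc7a2, the arginine transporter CAT2, stood at 497, 557, 607 and 527 CPM in WT at 4 h and 204, 199.9, 195 and 221 CPM at 18 h. The corresponding labelled-KO values were 362, 446 and 337 CPM and 538, 677 and 465 CPM. The groups did not overlap at either time: labelled KO was below WT at 4 h and above it at 18 h (contrast 1.97 ± 0.17, edgeR adjusted p = 1.6e-05). Acod1 was the third positive member, and Sms, spermine synthase, was negative (-1.19). Of 19 prostaglandin and leukotriene genes 3 were positive and 2 negative (median 0.04), the negative count being 1 or 2 without 1 library. With Ptgs2, the positive ones were Ptges, the prostaglandin E synthase (0.83), and Pla2g4a, the phospholipase that frees arachidonic acid (0.68), while Ptger4, a prostaglandin E2 receptor, was negative (-0.88).

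Of 37 glycolysis and hypoxia response genes 10 were positive (27%) and 2 negative (median 0.19), against 6.12% and 3.73% of all genes tested. The positive count was 5 without labelled-KO number 4 at 18 h or number 2 at 4 h, and 6 without number 4 at 4 h or WT number 2 at 18 h. Pfkfb3, which drives glycolytic flux, stood at 361 and 349.6 CPM in WT, a change that was not called. In labelled KO it rose from 296 to 752 CPM (contrast 1.39 ± 0.16). Slc2a1, the glucose transporter GLUT1, fell in WT and rose in labelled KO (contrast 1.03), and Vegfa, the endothelial growth factor, rose in both (1.15). Hk2, a hexokinase, was negative with Slc16a1 (-0.76). Of 28 citric acid cycle genes 0 were positive and 3 negative (median -0.08), but only 1 was called without any 1 of 7 libraries (labelled-KO number 4 at 18 h, numbers 2 and 4 at 4 h, WT numbers 3 and 4 at 18 h, and numbers 2 and 3 at 4 h). Idh2, the mitochondrial isocitrate dehydrogenase, fell to 6.08 CPM in WT and 2.76 CPM in labelled KO (contrast -1.26 ± 0.19). Idh1, its cytosolic counterpart, had -0.46 (edgeR adjusted p = 0.035), a call that ended in 9 of the 14 fits without 1 library. Of 46 respiratory chain subunits, 0 passed edgeR's adjusted test in either direction (2 at an unadjusted p under 0.05; 2 by DESeq2 and 0 by limma-voom; median -0.01). Across 26 cholesterol synthesis genes 1 was positive and 2 negative (median 0.02), with 0 to 2 of each without 1 library. Across 37 LXR target and lipid genes 1 was positive and 2 negative (median 0.09; 1 to 3 and 1 to 5 without 1 library), including the desaturase gene Fads1 (-1.15).

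Ribosome biogenesis had the lowest median of the pathway lists. Of 40 factors tested 0 were positive and 9 negative (22.5%, against 3.73% of all genes), with a median of -0.59. At 18 h 34 of the 40 were lower in labelled KO and 0 higher (edgeR), against 14.6% and 16.5% of all genes tested. At 4 h 0 of the 40 were called by edgeR in either direction, where 3.92% of all genes were. The mean of the list was 3.55, 3.81, 3.65 and 3.78 log2 CPM in WT at 4 h and 3.72, 3.72, 3.52 and 3.52 at 18 h. In labelled KO it was 3.50, 3.56 and 3.49 at 4 h and 2.93, 3.06 and 2.66 at 18 h, below all other libraries. Number 4, the lowest, is also the library highest in stromal markers; the part of these markers in the result was not tested beyond the fit with them as a covariate, where 7 were negative.

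Utp4, a factor of small subunit assembly, rose in WT from 4.61, 5.87, 5.56 and 5.31 CPM to 14.8, 14.7, 12.3 and 13 CPM. Labelled KO held 5.32, 6.38 and 5.87 CPM at 4 h and 6.3, 7.18 and 7.19 CPM at 18 h, a change that was not called (contrast -1.14 ± 0.18, edgeR adjusted p = 0.0011). The count of 9 moved with single libraries: it was 3 without labelled-KO number 2 at 4 h or WT number 1 or 2 at 18 h, 4 without labelled-KO number 3 at 4 h or number 4 at 18 h, 5 without number 2 at 18 h, 15 without number 3 at 18 h, and 2 without both libraries of number 4. With all 21 libraries it was 15. Of 39 mitochondrial ribosomal proteins 0 were positive and 1, Mrpl12, negative (contrast -0.89; list median -0.19; 1 to 3 negative without 1 library). Of 31 constitutive proteasome subunits 0 passed edgeR's adjusted test (1 at an unadjusted p under 0.05; 0 by DESeq2 or limma-voom; median -0.01).

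**Figure D4:**
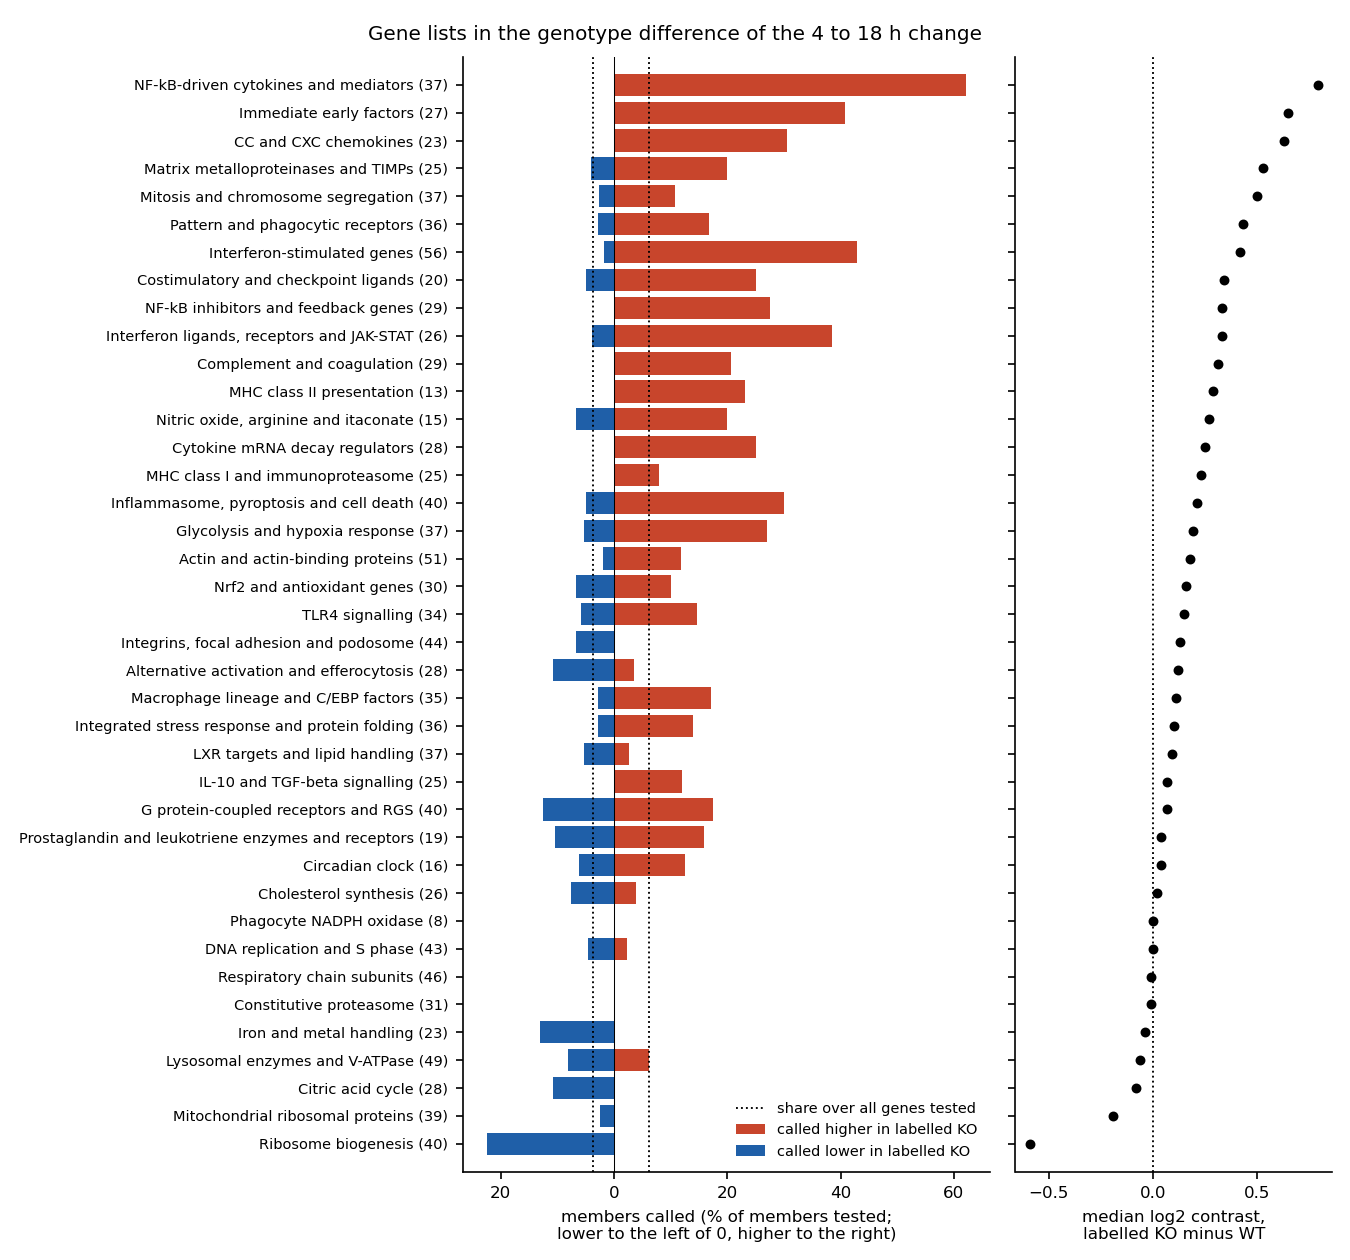
For 39 pathway lists, with the number of members tested in brackets, the left panel gives the percentage of members called higher (red) and lower (blue), with dotted lines at 6.12% and 3.73% for all genes tested, and the right panel the median contrast. The NF-kB-driven list reaches 62.2% on the positive side and ribosome biogenesis 22.5% on the negative side.

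Matrix, coagulation and stress genes also held called members, beside 6.12% positive and 3.73% negative calls over all genes tested. Of 25 metalloproteinases and TIMPs 5 were positive (20%) and 1 negative (median 0.53; 0 or 1 negative without 1 library), including Plaur, the urokinase receptor (1.03). Of 29 complement and coagulation genes 6 were positive and 0 negative (median 0.31), among them Procr, the protein C receptor (1.25). Of 36 stress response and protein folding genes 5 were positive and 1 negative (median 0.1; 0 or 1 negative without 1 library), with the cystine transporter gene Slc7a11 rising in labelled KO from 37.3 to 89.6 CPM (contrast 1.61); its WT means of 41.3 and 32.5 CPM did not differ by the test. Of 30 Nrf2 and antioxidant genes 3 were positive (10%) and 2 negative (6.67%), with a median of 0.16. That positive count was 1 without labelled-KO number 2 or 4 at 4 h and 6 without WT number 1 or 4 at 4 h, and the negative count 0 to 2 without 1 library. Of 8 NADPH oxidase subunits 0 passed edgeR's adjusted test (2 at an unadjusted p under 0.05; 1 by DESeq2 and 0 by limma-voom).

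Of 23 iron genes 3 were negative (13%) and 0 positive (median -0.04), where 3.73% of all genes tested were negative and 6.12% positive. In this list 2 were positive by DESeq2, without WT number 1 at 4 h or without labelled-KO number 2 at 18 h. Tfrc, the transferrin receptor, fell from 63 to 26.5 CPM in WT and from 69.2 to 15 CPM in labelled KO (contrast -0.96 ± 0.12). Slc39a14, an iron and zinc transporter, was 155 against 71.1 CPM at 4 h, labelled KO first, and 19.7 against 25.6 CPM at 18 h (contrast -1.49). Of 35 macrophage lineage and C/EBP factors 6 were positive (3 without labelled-KO number 4 at 18 h) and 1 negative (median 0.11), among them Ets2 (1.12). Of 40 G protein-coupled receptors and RGS genes 7 were positive and 5 negative (median 0.07; 3 and 2 without both libraries of labelled-KO number 4), the positive count being 4 without labelled-KO number 2 at 4 h or WT number 2 at 18 h. Hcar2, the niacin receptor, was positive (1.17), and Cx3cr1, the fractalkine receptor (-1.91), and P2ry2, a purine receptor (-1.26), were negative; without both libraries of labelled-KO number 4 the P2ry2 call ended (contrast -1.10, edgeR adjusted p = 0.05).

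The remaining lists had few called members, and their counts are a description only, since most moved with the library left out. They stand beside 6.12% positive and 3.73% negative calls over all genes tested. Of 51 actin and actin-binding genes 6 were positive (3 without labelled-KO number 2 or 3 at 4 h or WT number 1 or 2 at 18 h; 13 by DESeq2) and 1, Lima1, negative (median 0.18). Of 44 integrin, focal adhesion and podosome genes 0 were positive and 3 negative (median 0.13; 0 to 4 and 1 to 4 without 1 library), including the integrin gene Itga6 (-0.55). Mitosis genes gave 4 positive and 1 negative of 37 (median 0.5), 1 or 2 of the 4 being left without labelled-KO number 4 at 18 h, number 2 or 3 at 4 h, or WT number 2 or 4 at 18 h. Birc5, survivin, a regulator of cell division, was at 3.68 CPM or less in every group mean (contrast 2.12). DNA replication genes gave 1 and 2 of 43 (median 0; 0 or 1 and 0 to 2 without 1 library). Lysosomal and V-ATPase genes gave 3 and 4 of 49 (median -0.06; 1 to 4 and 2 to 5 without 1 library), with Ctsh, a cathepsin, positive (0.67) and Lgmn, legumain, negative (-0.54). MHC class II genes gave 3 and 0 of 13 (median 0.29), but 0 without labelled-KO number 4 at 18 h, number 3 at 4 h or WT number 2 at 18 h. MHC class I genes gave 2 and 0 of 25 (median 0.23; 1 to 7 and 0 to 2 without 1 library), with the transporter gene Tap2 positive (0.68). Clock genes gave 2 and 1 of 16 (median 0.04; 1 or 2 and 0 or 1 without 1 library). Of 23 genes chosen earlier from these data because they differed between the labels at 0 h, 2 were positive and 5 negative (median 0), which is no independent evidence, and Trim30d, a member of a family of similar genes, had 1.08.

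Marker lists were read in the same way, against 6.12% positive and 3.73% negative calls over all genes tested. Of 17 macrophage markers 2 were positive and 2 negative (median 0.11; 1 to 3 and 1 or 2 without 1 library). Adgre1, which encodes F4/80, rose from 1950.3 to 3311 CPM in WT and from 1808 to 2216 CPM in labelled KO (contrast -0.47). Without both libraries of labelled-KO number 4 the Adgre1 call ended (contrast -0.41, edgeR adjusted p = 0.067), and 0 macrophage markers were negative. Of 10 neutrophil and precursor markers 0 passed edgeR's adjusted test (3 at an unadjusted p under 0.05; 2 by DESeq2 and 0 by limma-voom; 3 without WT number 1 at 4 h; median 0.47). Their summed level was 286 to 342 CPM at 4 h and 347 to 418 CPM at 18 h in WT, and 349 to 412 and 534 to 645 CPM in labelled KO. Monocyte markers gave 2 positive and 0 negative of 12 (median 0.72; 0 positive without both libraries of labelled-KO number 4), with sums of 765 to 1306 and 1747 to 2305 CPM in WT and 882 to 1135 and 2538 to 2921 CPM in labelled KO. The 2 positive monocyte markers were Nr4a1, the gene named in the labels, and Vcan, the proteoglycan versican. Vcan had a contrast of 1.27, and 1.10 without both libraries of labelled-KO number 4 (edgeR adjusted p = 0.066). Dendritic cell markers gave 3 and 0 of 10 (median 0.32; 1 to 3 and 0 or 1 without 1 library) and endothelial markers 2 and 0 of 5 (median 0.73), Eng, endoglin, among them (0.78). B cell and T and NK cell markers had 2 tested genes each and 0 called (0 at an unadjusted p under 0.05; 0 by DESeq2 or limma-voom). The 1 mast cell and basophil marker tested was Hdc, while Mcpt4, Tpsb2, Tpsab1, Fcer1a, Ms4a2 and Cma1 were at 0 in all 14 libraries. Of 3 erythroid and megakaryocyte markers tested 1, Tfrc, was negative, and the globin genes Hba-a1, Hba-a2, Hbb-bs and Hbb-bt were at 0 in all 14 libraries. The part of the stromal, neutrophil and monocyte markers in the results was not tested beyond the stromal covariate.

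**Figure D5:**
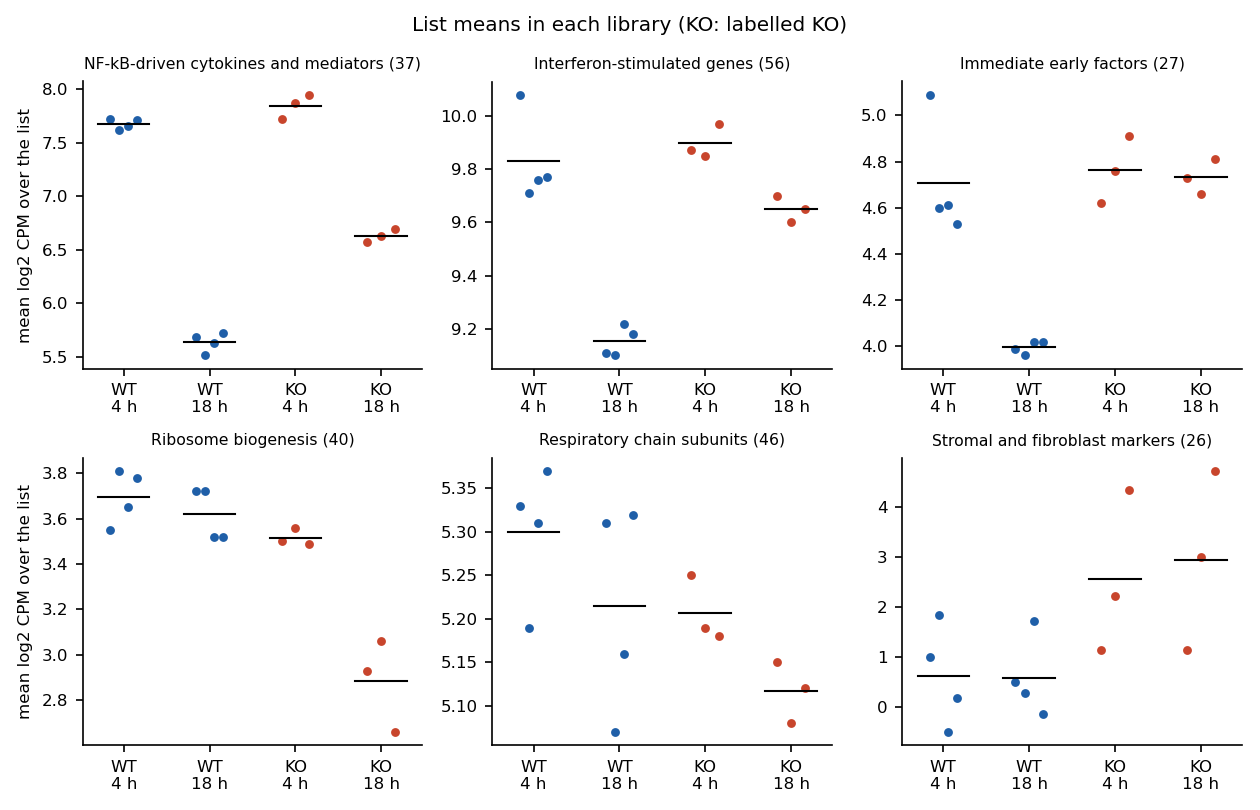
Mean log2 CPM over the members tested of 6 lists in each library (points; line, group mean) by genotype and time. The NF-kB-driven, interferon-stimulated and immediate early lists are higher in all 3 labelled-KO libraries than in all 4 WT libraries at 18 h and ribosome biogenesis is lower, while stromal markers are highest in labelled-KO number 4 at both times.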

How the data were processed

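Poly(A) libraries (KAPA mRNA HyperPrep, RNeasy extraction, per the labels' protocols) were processed with CASAVA 1.8.2 and HISAT2 2.1.0 on mm10, per the submitters' processing notes. The sources used here give neither the counting tool nor its use of strand, so overlapping genes and near-identical copies are uncertain. For each RefSeq transcript the deposited table holds an estimated count, in steps of 0.5; values ending in 0.5 were rounded up here. Of 42361 transcript IDs, 42203 matched a RefSeq table and 65 GENCODE; 93 had no gene name, took 0.397 to 2.229% of counts and were left out. The transcript of highest mean stood for each of 25067 genes.

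The contrast was fitted with edgeR 4.0.16 (quasi-likelihood test, R 4.3.3) on 14 libraries with 4 group means, TMM normalization and filterByExpr at its default. A gene was called where the Benjamini-Hochberg adjusted p over all genes tested was under 0.05. CPM uses TMM library sizes. The fit was tested on simulated data. Replicates differed by more than sampling noise. The alternatives were DESeq2 1.42.0, limma-voom (limma 3.58.1), median-of-ratios and upper-quartile factors, 3 other filters, all 21 libraries, the replicate number as a block, a stromal covariate, summed transcripts and leaving out each library; leaving out both libraries of labelled-KO number 4 was added after seeing the data.

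Genes were named by rule: Nr4a1, fixed genes, up to 3 per class and sign (a group mean of at least 5 CPM) and up to 3 called members per list and sign. Of these the text leaves out most whose call ended without 1 library. Some genes the rule names are not reported here. The members and lists were chosen with earlier results of these data known. Figures used matplotlib 3.10.9 and Python 3.11.15.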

Additional observations from a re-analysis of the deposited data

Results flagged for a closer look

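In 18 of the 210 WT groups of the genes named, 1 library stood far from the other 3 (by Dixon's criterion at 95%), and chance gives about 1 in 20 groups. WT number 1 at 4 h was the outlying library in 11 of them. In CPM it held Nr4a1 at 5.97 against 1.08 to 1.8, Clic5 at 14.9 against 5.16 to 5.63, Tarm1 at 148 against 50.8 to 61 and Lipg at 200.2 against 101 to 111 in the other 3. It also held Inhba at 14.7 against 6.28 to 6.81, Klf4 at 10.2 against 3.99 to 4.2, Tut7 at 349.5 against 256 to 266 and Stat4 at 19.2 against 7.04 to 8.99. Further, it held Procr at 81 against 48.3 to 53.3, Tfrc at 56.5 against 64.5 to 66 and Saa3 at 3326 against 674 to 870.3. Elsewhere the outlying values were Nr4a3 in WT number 3 at 18 h at 0.271 against 0.0328 to 0.051 CPM, Lima1 in WT number 3 at 18 h at 78.3 against 72.5 to 73.3 CPM and Nos2 in WT number 2 at 4 h at 554 against 674 to 689.5 CPM. Others were Il6 in WT number 1 at 18 h at 20.7 against 14.8 to 15.7 CPM, Msr1 in WT number 2 at 18 h at 1396 against 1504 to 1518 CPM and Scarb1 in WT number 4 at 18 h at 14.2 against 12.8 to 13 CPM. The last were Ets2 in WT number 1 at 18 h at 156 against 140.3 to 143 CPM.

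The 4 h to 18 h change differed between the genotypes by a test of the difference itself (edgeR's contrast, adjusted over all genes) in 722 genes with a positive and 440 with a negative contrast. Among those named, contrasts (log2) of 2 or more were Nr4a1 3.12, Fzd1 2.61, Tmtc2 2.57, Ch25h 2.56, Car2 2.49, Nr4a3 2.46, Ptgs2 2.25, Hspa1a 2.24, Nos2 2.19, Clic5 2.16, Birc5 2.12, Il6 2.08, Hspa1b 2.03 and Inhba 2.01; the fitted value of Rhov was 5.68 and depends on how a group with no count is treated. Contrasts between 1 and 2 were Lipg 1.97, Slc7a2 1.97, Tarm1 1.8, Stat4 1.8, Klf4 1.74, Slc7a11 1.61, Havcr2 1.51, Pfkfb3 1.39, Thbs1 1.35, Dusp1 1.32, Il1b 1.31, Mmp13 1.28, Vcan 1.27, Fcgr3 1.26, Procr 1.25, Ccl3 1.17, Hcar2 1.17, Vegfa 1.15, Gbp5 1.13, Il10 1.12, Ets2 1.12, Cxcl2 1.09, Cd14 1.09, Hdc 1.09, Trim30d 1.08, Tlr3 1.04, Slc2a1 1.03, Plaur 1.03 and Aim2 1.02. Positive contrasts under 1 were Cxcl10 0.99, Nfil3 0.96, Cd86 0.96, Ifit1 0.94, Cd274 0.91, Gbp3 0.90, Zfp36 0.85, Msr1 0.84, Ptges 0.83, Bcl6 0.80, Eng 0.78, Tut7 0.77, Socs3 0.76, Pla2g4a 0.68, Tap2 0.68, Ctsh 0.67, Acod1 0.62, Tbk1 0.55 and Nfkb1 0.49. Negative contrasts above -1 were Idh1 -0.46, Adgre1 -0.47, Lgmn -0.54, Itga6 -0.55, Gas6 -0.67, Traf3 -0.71, Irf8 -0.75, Hk2 -0.76, Scarb1 -0.77, Pycard -0.78, Ifngr1 -0.88, Ptger4 -0.88, Mrpl12 -0.89, Vsir -0.93 and Tfrc -0.96. Contrasts of -1 or lower were Cd300a -1.13, Utp4 -1.14, Fads1 -1.15, Sms -1.19, Idh2 -1.26, P2ry2 -1.26, Ints7 -1.36, Slc39a14 -1.49, Cela1 -1.53, Kcnk13 -1.57, Ppp3cc -1.58, Scamp5 -1.60, Trp53rka -1.60, Arhgap19 -1.78, Slc16a1 -1.86, Snhg15 -1.88, Cx3cr1 -1.91, Lima1 -2.27, Tnfrsf10b -2.41 and Eps8 -3.42.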

How the results depend on the processing

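The contrast was refitted under 26 alternatives, 14 of which left out 1 library. DESeq2 called 1086 genes positive and 467 negative. Leaving out both libraries of labelled-KO number 4, an alternative chosen after seeing the data, gave 398 and 155. Leaving out 1 library gave 455 to 862 positive and 226 to 443 negative calls. For labelled KO against WT at 4 h the count was 710 with DESeq2, 697 with all 21 libraries and 160 to 570 without 1 library. At 18 h it was 2423 to 4194 without 1 library. The causes of these shifts were not tested. The 18 h against 4 h counts were 8270 to 8839 in WT and 7474 to 8084 in labelled KO. With the replicate block, 822 genes were positive and 492 negative. Same-numbered 4 h and 18 h libraries correlated in their deviations at 0.06, 0.08, -0.04 and 0.14 in WT and 0.43, 0.1 and 0.51 in labelled KO, and differently numbered ones at -0.2 to 0.16 and -0.49 to 0.1. Not every same-numbered pair was over 0.1. The main fit did not use the numbers as pairs, and the block stayed an alternative. In labelled KO numbers 2 and 4 each correlated best with themselves. No gene was called in opposite directions, though the alternatives share most of their libraries. The median contrast over all genes stayed within 0.05 of 0, which follows in part from scaling the libraries and does not measure stability. At 18 h the TMM factors were 1.177 to 1.233 in WT and 1.019 to 1.055 in labelled KO. Of 98 called genes named here, 85 kept their call under every alternative and 0 reversed. Another 11 lost it under 1 to 5 alternatives and 2 (Il10 and Idh1) under more than 5. Most genes whose call ended without 1 library had been left out of the text beforehand. The 85 follow in part from that choice and do not measure how stable calls are in general. Counts below 1 CPM, as for Nr4a3 at 18 h, rest on few reads.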
